A study of Mus musculus with 21 samples.

Results

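A pair of culture conditions of mouse CD8 T cells were set side by side on day 3: cells grown with 50 IU/mL IL-2v and cells grown with 50 IU/mL IL-2. Every cell barcode of both deposited tables was used, 4812 with IL-2v and 3471 with IL-2, which together were 8283 of the 106458 cells in the 21 libraries of the series. The cells were OT1 T cells, whose receptor is a transgene against an ovalbumin peptide, and both cultures had been started from naive cells with beads carrying anti-CD3 and anti-CD28 antibodies. The label of the IL-2v library names its cytokine as mutant IL-2bg. Levels are also given for the other day 3 cultures from the same kind of bead activation (no cytokine, 5 IU/mL IL-2, 5 IU/mL IL-2v, and 5 or 50 IU/mL IL-15), for naive cells of day 0, and for the cultures with 50 IU/mL IL-2v or IL-2 on days 5 and 10. The treatment label of the 50 IU/mL IL-2 library reads interleukin-3 and that of the 50 IU/mL IL-15 library interleukin-16, while their titles give IL-2 and IL-15. The titles were followed. The extraction label speaks of sorted T cells from tumours although the growth label describes culture, and the number of mice behind a library is not given in the sources used here.

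IL-2 acts through a receptor of an alpha chain (CD25, gene Il2ra), which raises affinity, and the beta and gamma chains (Il2rb, Il2rg), which carry the signal to the kinases JAK1 and JAK3 and the transcription factor STAT5. IL-15 uses the same beta and gamma chains without CD25. IL-2 variants known as IL-2v are engineered for weaker binding to CD25, and the comparison asks what activated CD8 T cells express under such a cytokine in place of IL-2 at the same nominal dose. In activated CD8 T cells strong IL-2 signalling is known to favour glycolysis and effector features, whereas weaker signalling leaves more of the homing and memory genes on.

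Each condition had 1 library, so no spread between replicates exists and no test of the cytokine was possible. Values are given as UMIs (unique molecular identifiers, tags of single captured RNA molecules) per 1000000 UMIs of the library, abbreviated CPM, summed over all its cells. Ranges in parentheses are 95% intervals, exact Poisson for CPM, exact binomial (Clopper-Pearson) for shares of cells and conditional binomial for ratios, and all of them cover counting error only. The IL-2v library held 23617485 UMIs and the IL-2 library 16507682, with medians of 4537 and 4436 UMIs per cell. Mitochondrial transcripts took 4.38% of UMIs with IL-2v and 3.37% with IL-2. The libraries shared 5 barcodes, against a median of 7 over the 210 pairs of libraries. After each cell was thinned at random to 2000 UMIs, the T cell gene Cd3d was seen in 79.4% of cells with IL-2v and 78.7% with IL-2. Cd8b1 was seen in 55.5% and 42.0%, and Cd4 in 0.397% and 0.538%. The 6 T cell markers (Cd3 chains, receptor constant region and CD8 chains) were all lowest of the 7 day 3 libraries with 50 IU/mL IL-2, where they summed to 2238 CPM, against 2637 CPM with IL-2v and 3617 to 4025 CPM in the other libraries. No marker of B, NK, myeloid, dendritic or erythroid cells reached 20 CPM in either library, and these lists summed to at most 9.82 CPM with IL-2v and 7.45 CPM with IL-2.

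Of 6152 genes with at least 20 CPM in either library, 75 (1.22%) stood at least 2-fold above and 129 (2.1%) at least 2-fold below their IL-2 level in the IL-2v cells, on the scale of log2(CPM + 1). The median difference over all these genes was 0.049 and the middle 90% lay between −0.67 and 0.66. At least 4-fold apart were 3 genes higher and 16 lower. The genes nearest the threshold had differences of 1.008 and 0.999 on the higher side and −1.004 and −0.994 on the lower side, the last being Il7r. The IL-2 library was highest of the 7 day 3 libraries for 113 of the 129 lower genes, and it was lowest for 53 of the 75 higher genes, against 1752 and 1174 of all 6152 genes. The IL-2v library was lowest for 56 of the 129 and highest for 35 of the 75, against 974 and 2269 of all genes. Among the called genes the IL-2 library was thus at its end of the 7 more often than the IL-2v library was at the other end. Choosing genes by the difference of these libraries raises such counts above those of all genes by itself. A rank also does not give the size of a gap.

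Among the 12 lowest and 12 highest genes were metallothioneins, genes of the hypoxia response, a pair of inducible Hsp70 genes and interferon-stimulated genes. For 7 members of these 4 sets the 250 bases before the transcription start are shown because each holds letters of the element known for its set. They come from RefSeq on GRCm38.p6, are written 5′ to 3′ on the gene's strand, and carry the searched motif in capitals. GENCODE vM21, another annotation, places some starts elsewhere. There the Ankrd37 gene spans 45996902 to 46005707, so its window lies inside the gene. The Gbp2 window runs past the GENCODE start at 142620602, and its capitals lie beyond that start. Mt1 and Mt2 show TGCNCNC at chr8:94178839-94179088 and chr8:94172368-94172617 on the plus strand. This pattern was searched for the metal response element, but it leaves the middle base open and is wider than the element's core. Bnip3 (chr7:138909507-138909756, minus strand) and Ankrd37 (chr8:45999851-46000100, minus strand) show the core of the hypoxia response element, ACGTG. Hspa1a (chr17:34972157-34972406, minus strand) shows a heat shock element, GAANNTTC. Ifi206 (chr1:173491319-173491568, minus strand) and Gbp2 (chr3:142620413-142620662, plus strand) show an interferon-stimulated response element, read as GAAA, then 2 bases of any kind, then GAAA again.
Mt1: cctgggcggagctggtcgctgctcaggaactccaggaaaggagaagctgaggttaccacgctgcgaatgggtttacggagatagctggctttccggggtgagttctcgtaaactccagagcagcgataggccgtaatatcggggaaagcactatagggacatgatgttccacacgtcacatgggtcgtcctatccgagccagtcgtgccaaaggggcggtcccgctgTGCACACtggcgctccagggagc
Mt2: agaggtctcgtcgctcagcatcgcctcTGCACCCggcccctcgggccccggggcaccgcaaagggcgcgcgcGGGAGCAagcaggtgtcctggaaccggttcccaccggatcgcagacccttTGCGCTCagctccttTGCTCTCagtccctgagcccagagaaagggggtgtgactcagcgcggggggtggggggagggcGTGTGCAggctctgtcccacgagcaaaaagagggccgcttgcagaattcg
Bnip3: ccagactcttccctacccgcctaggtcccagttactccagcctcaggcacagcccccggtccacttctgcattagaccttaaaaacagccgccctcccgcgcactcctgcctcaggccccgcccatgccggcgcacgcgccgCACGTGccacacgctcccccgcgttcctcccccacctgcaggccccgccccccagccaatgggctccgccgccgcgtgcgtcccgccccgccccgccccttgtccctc
Ankrd37: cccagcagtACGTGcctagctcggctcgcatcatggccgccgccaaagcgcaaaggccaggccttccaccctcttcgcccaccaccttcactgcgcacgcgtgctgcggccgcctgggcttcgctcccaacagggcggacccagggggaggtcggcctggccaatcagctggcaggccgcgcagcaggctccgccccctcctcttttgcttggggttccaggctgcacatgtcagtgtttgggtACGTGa
Hspa1a: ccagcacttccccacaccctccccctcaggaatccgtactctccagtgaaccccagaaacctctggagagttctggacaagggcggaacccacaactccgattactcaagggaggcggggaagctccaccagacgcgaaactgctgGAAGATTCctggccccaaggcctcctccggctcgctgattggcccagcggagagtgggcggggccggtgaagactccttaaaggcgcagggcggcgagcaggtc
Ifi206: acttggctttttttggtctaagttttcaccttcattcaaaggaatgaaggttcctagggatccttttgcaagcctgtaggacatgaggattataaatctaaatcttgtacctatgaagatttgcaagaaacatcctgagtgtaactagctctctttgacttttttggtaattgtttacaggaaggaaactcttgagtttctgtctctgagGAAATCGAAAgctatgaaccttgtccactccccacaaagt
Gbp2: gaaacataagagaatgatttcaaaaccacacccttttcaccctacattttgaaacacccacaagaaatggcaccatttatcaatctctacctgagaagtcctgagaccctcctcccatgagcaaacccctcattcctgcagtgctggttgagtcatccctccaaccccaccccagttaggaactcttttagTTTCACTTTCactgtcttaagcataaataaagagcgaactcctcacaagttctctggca

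Both strands of the same 250 bases were searched for each motif in all 32851 promoters of the RefSeq table, which matched 4940 of the 6152 genes tested, 56 of the 75 higher genes and 91 of the 129 lower genes. In the capitals of Bnip3 the motif reads on both strands, in matches that overlap. ACGTG occurred in 16.6% of all promoters and 24.2% of those of the genes tested, and in 34 of 91 lower genes (37.4%) and 6 of 56 higher genes (10.7%). Among tested members of the hypoxia list it occurred in 8 of 13. Hilpda, a hypoxia gene outside the list, held no ACGTG in the first of its 2 listed promoters. The interferon element occurred in 2.98% of all promoters and 2.79% of the genes tested, in 8 of 56 higher genes (14.3%) and in 3 of 91 lower genes (3.30%). It was found in 6 of 10 matched interferon-stimulated members. TGCNCNC, a short and frequent string, occurred in 44.4% of all promoters, 52.1% of the genes tested, 69.2% of the lower and 42.9% of the higher genes. It was in 11 of the 13 hypoxia members, more than held ACGTG, and in 4 of the 10 interferon-stimulated members. GAANNTTC was in 7.69% of the lower and 8.93% of the higher genes, against 5.04% of the genes tested. A STAT motif, TTCNNNGAA, was in 4.40% and 10.7%, against 5.97%. It was in 4 of the 10 interferon-stimulated members and in none of the 13 hypoxia members. Motif matches were counted without a test and mark letters in a window, not bound sites.

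Metallothioneins, small proteins that bind zinc and copper and are induced by free zinc, showed the lowest differences after the Hsp70 genes described further on. Mt1 (chromosome 8, 94179082 to 94180327 in GENCODE vM21 on GRCm38) stood at 265 CPM without cytokine, 385 and 714 CPM with 5 and 50 IU/mL IL-2, 167 and 31.1 CPM with 5 and 50 IU/mL IL-2v, and 213 and 190 CPM with 5 and 50 IU/mL IL-15. The 2 libraries compared were therefore the extremes of the 7, and dose went with a higher level under IL-2 and a lower level under IL-2v. The level with IL-2 was 23.0 times that with IL-2v (21.3 to 24.8), a log2 difference of −4.48. Mt2 had 53.5 CPM without cytokine, 85.2 and 196 CPM with IL-2, 23.2 and 7.62 CPM with IL-2v, and 48.7 and 41.0 CPM with IL-15. Its order over the libraries was the same at both ends. The log2 difference of Mt2 was −4.52, but 73.5% of its exonic bases overlap Gm45774 on the opposite strand, so its reads cannot be assigned with certainty where strand was not used. After thinning to 2000 UMIs, 50.0% of the IL-2 cells (48.3% to 51.7%) and 4.52% of the IL-2v cells (3.93% to 5.16%) had a UMI of Mt1, against 0.0224% of naive cells, whose median depth was 3799 UMIs. Of the zinc transporters in the same list, Slc39a10, an importer, was the 1 other gene past 2-fold and lay the other way: it had 58.3 CPM with IL-2v and 24.2 CPM with IL-2, and 7.93 to 16.9 CPM in the remaining day 3 libraries. In cells without a UMI of Mki67 or Top2a its difference was 0.79, within 2-fold. Slc39a6 (57.3 and 54.3 CPM), Slc30a5 (32.1 and 27.3 CPM), Slc39a1 (20.2 and 21.5 CPM) and the metal-sensing factor Mtf1 (20.7 and 14.7 CPM) were within 2-fold.

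**Figure D1:**
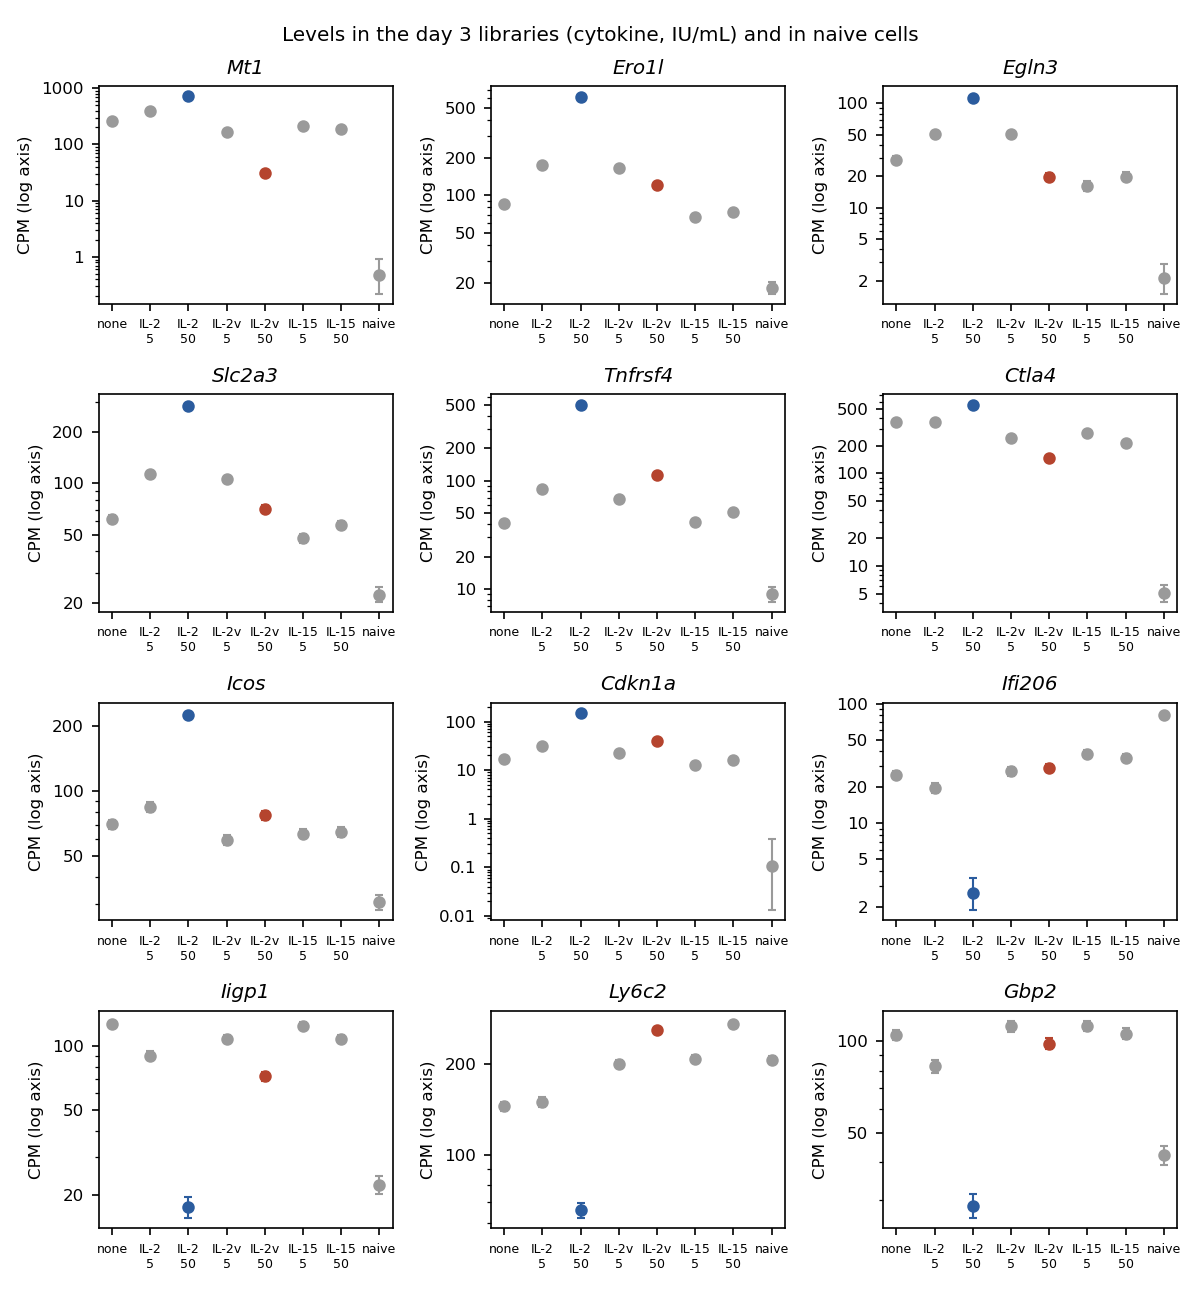
CPM on log axes with exact Poisson 95% intervals in the 7 day 3 libraries, labelled by cytokine and IU/mL, and in naive cells, with 50 IU/mL IL-2 in blue and 50 IU/mL IL-2v in red. For the first 8 genes the IL-2 library is highest (Mt1 at 714 CPM), and for Ifi206, Iigp1, Ly6c2 and Gbp2 it is the lowest of all 8 libraries shown.

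The hypoxia response list holds genes that hypoxia-inducible factor is known to switch on when oxygen is low and also in activated T cells. Of its 17 tested members, 12 were at least 2-fold lower with IL-2v and none was higher, against 129 and 75 of 6152 genes, and the median difference was −1.54. All 17 were highest of the 7 day 3 libraries with 50 IU/mL IL-2, against 1752 of all 6152 genes. The whole list of 18 genes held 3799 CPM there and 1727 CPM with 50 IU/mL IL-2v. The remaining libraries held 1549 CPM without cytokine, 2129 and 2094 CPM with 5 IU/mL IL-2 and IL-2v, and 1238 and 1296 CPM with 5 and 50 IU/mL IL-15. In this sum the IL-2v library lay below both low-dose cultures and above those with IL-15 and without cytokine. For 5 of the 17 tested genes it was the lowest of the 7, against 974 of all 6152 genes. Hif1a, the factor's own oxygen-regulated subunit, was at 424 CPM with IL-2v and 429 CPM with IL-2 (log2 difference −0.02).

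Ero1l, an oxidase of disulphide bond formation in the endoplasmic reticulum, had 85.9 CPM without cytokine, 174 and 611 CPM with 5 and 50 IU/mL IL-2, 165 and 121 CPM with IL-2v, and 67.1 and 73.8 CPM with IL-15. Its level with IL-2 was 5.04 times that with IL-2v (4.84 to 5.26). Ndrg1, a stress-responsive gene, had 32.7 CPM without cytokine, 60.8 and 151 CPM with IL-2, 53.9 and 19.4 CPM with IL-2v, and 15.4 and 15.9 CPM with IL-15. Egln3, a prolyl hydroxylase that marks hypoxia-inducible factor for destruction, had 29.0 CPM without cytokine, 51.4 and 113 CPM with IL-2, 51.2 and 19.9 CPM with IL-2v, and 16.1 and 19.8 CPM with IL-15. In all of these the 50 IU/mL IL-2v level lay close to or below that without cytokine or with IL-15, apart from Ero1l, which was higher than both. Ankrd37 had the lowest level of the 7 with IL-2v (5.46 CPM, against 45.9 CPM with IL-2 and 6.53 to 35.3 CPM elsewhere), but 22.7% of its exonic bases overlap Lrp2bp on the other strand. Bnip3, which marks mitochondria for autophagy, had 78.8 CPM without cytokine, 142 and 343 CPM with IL-2, 164 and 118 CPM with IL-2v, and 35.6 and 42.9 CPM with IL-15, and 22.3% of its exonic bases overlap a gene on the other strand. Mxi1 (16.4 against 76.1 CPM), P4ha2 (11.1 against 44.7 CPM), Bhlhe40 (71.4 against 245 CPM), Ddit4 (84.6 against 258 CPM), Egln1, P4ha1 and Vegfa made up the rest of the 12. Hilpda, a lipid droplet protein, and Ak4, a mitochondrial adenylate kinase, are known hypoxia genes outside the list that were among the 12 lowest genes, at 12.4 against 88.9 CPM and 5.72 against 29.6 CPM.

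The hypoxia list differed over most of the range of cells. After thinning to 2000 UMIs its members had a median of 7 UMIs in an IL-2 cell against 3 in an IL-2v cell, and its 10th and 90th percentiles were 3 and 14 for IL-2 cells and 1 and 6 for IL-2v cells. Cells with none of these UMIs were 0.568% with IL-2, 4.89% with IL-2v and 7.09% without cytokine.

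**Figure D2:**
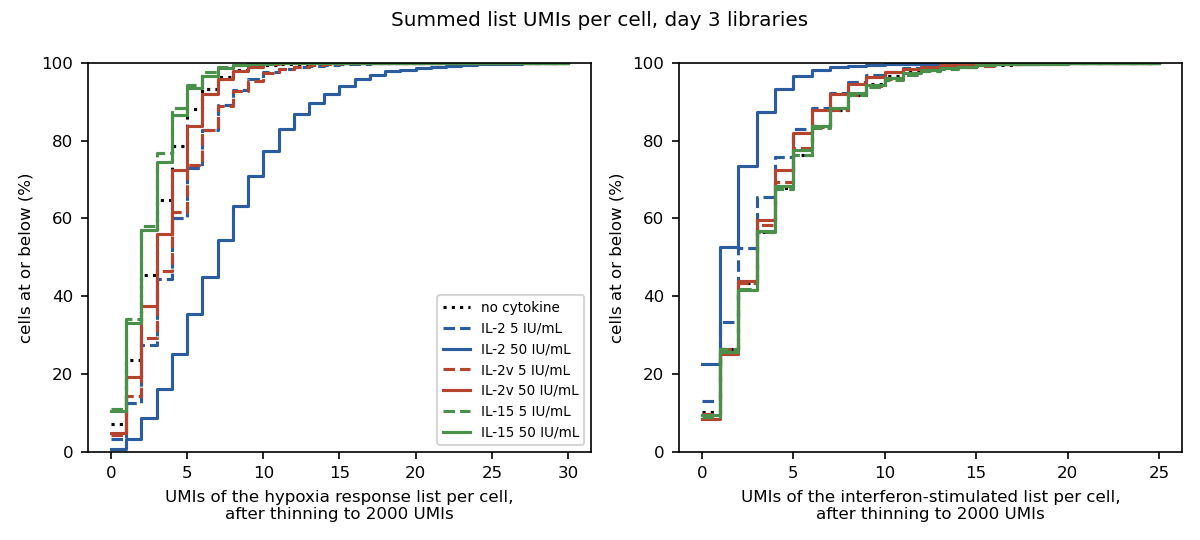
Cumulative share of cells (%) against the summed UMIs of the hypoxia response list (left) and of the interferon-stimulated list (right) per cell, after thinning to 2000 UMIs, for the 7 day 3 libraries. On the left the 50 IU/mL IL-2 curve lies right of all others, and on the right it lies left of them, with medians of 7 and 1 UMIs.

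Most glycolysis genes were also lower with IL-2v, with smaller differences. Of 19 tested members, 5 were at least 2-fold lower with IL-2v and none was higher, against 129 and 75 of 6152 genes. The list's median was −0.72, and 16 of the 19 were highest of the day 3 libraries with 50 IU/mL IL-2, against 1752 of all 6152 genes. The list held 20560 CPM with IL-2 and 13355 CPM with IL-2v, against 13330 CPM without cytokine, 17150 and 16692 CPM with 5 IU/mL IL-2 and IL-2v, and 13117 and 13561 CPM with IL-15. The IL-2v level was thus near that of the cultures with IL-15 or without cytokine. The 5 genes were the glucose transporters Slc2a3 and Slc2a1, the lactate exporter Slc16a3, Pfkfb3, whose product drives phosphofructokinase, and the mutase Pgam1. Slc2a3 had 62.1 CPM without cytokine, 113 and 284 CPM with 5 and 50 IU/mL IL-2, 107 and 71.0 CPM with IL-2v, and 47.9 and 57.0 CPM with IL-15, so that the IL-2v level was 0.250 times that with IL-2 (0.237 to 0.265). Slc2a1 had 28.2 CPM with IL-2v and 77.2 CPM with IL-2. Other enzymes of the pathway were closer: Gapdh was at 2449 and 4457 CPM, Pgk1 at 1901 and 2733 CPM, and Ldha, which makes lactate, at 1958 and 2248 CPM. Eno1 (634 and 518 CPM) and the lactate carrier Slc16a1 (66.2 and 53.01 CPM) lay on the other side of 0. Pgam1, Gapdh, Pgk1 and Eno1 share 24.7% to 53.9% of their 50-base stretches with pseudogenes or copies, which makes their levels uncertain.

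Receptors that T cells display after activation formed the next group. Of 7 tested members of the costimulatory TNF receptor family, 4 were at least 2-fold lower with IL-2v and none was higher (median −1.12). Among all 6152 genes tested these counts were 129 and 75. With a pseudocount of 10 CPM 3 of the 7 were lower (median −0.97). Tnfrsf4, which encodes OX40, had 40.5 CPM without cytokine, 84.3 and 499 CPM with 5 and 50 IU/mL IL-2, 68.1 and 114 CPM with IL-2v, and 41.6 and 51.4 CPM with IL-15. Tnfrsf18 (GITR) had 140, 198 and 674, 218 and 247, and 142 and 165 CPM in the same order, and 27.2% of its exonic bases overlap Gm16008 on the other strand. Tnfrsf9 (4-1BB) had 83.2 CPM without cytokine, 172 and 509 CPM with IL-2, 160 and 234 CPM with IL-2v, and 89.9 and 118 CPM with IL-15. For these 3 receptors the IL-2v culture ranked second of the 7 behind IL-2. Tnfrsf8 (CD30) was at 13.0 and 35.2 CPM. By contrast Cd27, a costimulator of resting and memory cells, had 92.5 CPM with IL-2v and 80.3 CPM with IL-2, both below the 194 to 285 CPM of the other day 3 libraries. In cells thinned to 2000 UMIs, Tnfrsf4 was seen in 18.6% with IL-2v (17.4% to 19.7%) and 52.97% with IL-2 (51.3% to 54.7%), against 1.16% of naive cells.

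Ctla4, an inhibitory receptor for B7 ligands, had 358 CPM without cytokine, 364 and 552 CPM with 5 and 50 IU/mL IL-2, 245 and 147 CPM with IL-2v, and 274 and 212 CPM with IL-15. Here the IL-2v culture was lowest of the 7 and the IL-2 culture highest, with a ratio of 3.77 (3.62 to 3.92). Of the other inhibitory receptors that were tested, Cd160 was 2-fold higher with IL-2v (34.2 against 10.8 CPM, and 35.1 to 42.3 CPM in the other day 3 libraries), while the receptor gene Lag3 (95.9 and 128 CPM) and Tox (26.1 and 19.3 CPM), a factor known from exhausted cells, were within 2-fold. Icos, a costimulatory receptor named after its values were seen, had 70.5 CPM without cytokine, 84.7 and 225 CPM with IL-2, 59.7 and 77.6 CPM with IL-2v, and 63.8 and 65.0 CPM with IL-15. The Cd160 and Icos levels with IL-2v thus lay near those of the cultures without high-dose IL-2.

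**Figure D3:**
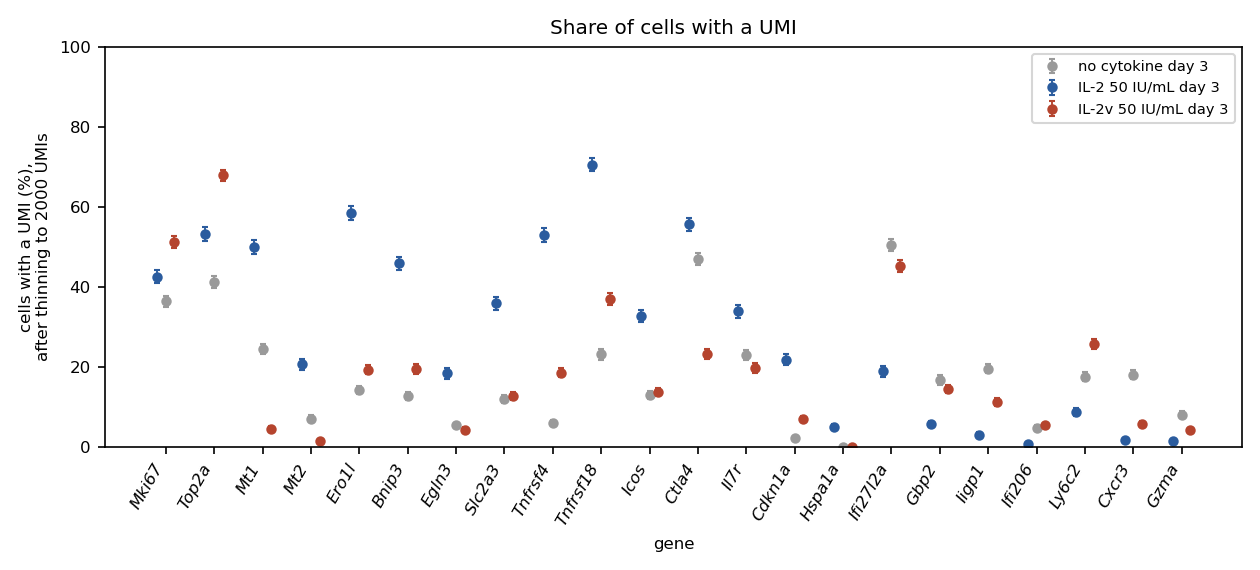
Share of cells (%) with a UMI of each gene after thinning to 2000 UMIs, with exact binomial 95% intervals, for day 3 cells without cytokine (grey), with 50 IU/mL IL-2 (blue) and with 50 IU/mL IL-2v (red). Ero1l was seen in 58.4% of IL-2 cells and 19.3% of IL-2v cells, and Ly6c2 in 8.63% and 25.7%.

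The lowest differences of all came from the inducible Hsp70 genes Hspa1a and Hspa1b, chaperones made under protein stress, and here few cells carried the signal. Hspa1a had 1087 UMIs (65.8 CPM) in the IL-2 library and 2 UMIs with IL-2v, a ratio of 0.00129 (0.000156 to 0.00466). It was at 0 to 0.193 CPM in the other day 3 libraries. Hspa1b had 869 and 2 UMIs. Each of these genes shares over 60% of its 50-base stretches with the other (60.4% and 62.3%), so their split is uncertain. A UMI of either gene was found in 288 of 3471 IL-2 cells (8.30%, 7.401% to 9.26%) and in 4 of 4812 IL-2v cells (0.0831%, 0.0227% to 0.213%), and 24 of 4777 naive cells had one (0.502%). In the IL-2 library 64 cells had at least 10 such UMIs, and the 34 cells with the most held 47.8% of them. The 288 cells had higher levels than the remaining IL-2 cells of the co-chaperones Dnajb1 (334 against 54.7 CPM) and Hsph1 (234 against 41.5 CPM), with median depths of 5011 and 4397 UMIs. They were also higher in Hsp90aa1 (1911 against 925 CPM), Dnaja1 (438 against 188 CPM), Mt1 (1134 against 671 CPM) and Ero1l (830 against 589 CPM), while Cd8a was at 204 against 221 CPM. Dnajb1 and Hsph1 were the other 2 of the 14 tested heat shock chaperones at least 2-fold lower with IL-2v, at 35.5 against 80.8 CPM and 25.9 against 59.4 CPM. Both were within 2-fold with a pseudocount of 10 CPM, at −0.995 and −0.95, and Hsph1 also in cells without a UMI of Mki67 or Top2a (−0.67). Over the list 4 of 14 were 2-fold lower and none higher, against 129 and 75 of all 6152 genes, and the median was −0.25. Of the mitochondrial chaperones, Hspd1 (393 and 339 CPM) and Hspa9 (352 and 415 CPM) were in both libraries above the 83.4 to 194 CPM seen in the remaining day 3 libraries and in naive cells. Hspe1, the partner of Hspd1, was at 270.1 and 424 CPM, against 284 to 330.3 CPM in those libraries.

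Interferon-stimulated genes lay on the higher side. Of 13 tested members of the list, 6 were at least 2-fold higher with IL-2v and none was lower, with a median of 0.89, against 75 higher genes in 6152. The list held 876.5 CPM with 50 IU/mL IL-2, 1692 CPM with 50 IU/mL IL-2v and 1479 to 1800 CPM in the remaining day 3 libraries. With IL-2, 9 of the 13 genes were lowest of the 7, against 1174 of all 6152 genes. The IL-2v culture thus resembled the other cultures in summed level and the IL-2 culture was the low one. Ifi27l2a had 499 CPM without cytokine, 382 and 124 CPM with 5 and 50 IU/mL IL-2, 491 and 415 CPM with IL-2v, and 567 and 504 CPM with IL-15. Gbp2, a GTPase against intracellular microbes, had 105 CPM without cytokine, 82.7 and 28.5 CPM with IL-2, 112 and 98.4 CPM with IL-2v, and 113 and 106 CPM with IL-15, a ratio of 3.45 (3.12 to 3.81). Gbp7 (206 and 87.5 CPM), Ifi47 (137 and 54.9 CPM) and Isg20 (29.7 and 13.1 CPM) were also above 2-fold. Ifitm2 went the other way (log2 difference −0.70), and 48.5% of its 50-base stretches are shared with other genes. Ifitm1 had 33.2 CPM with IL-2v and 17.4 CPM with IL-2, and 4.39 to 7.60 CPM in the remaining day 3 libraries.

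Of genes outside the list, the 12 with the highest differences included further interferon-inducible genes. Ifi206, a DNA sensor family member, led the higher side, with 2.60 CPM (1.89 to 3.51) in the IL-2 library and 29.1 CPM (27.0 to 31.3) in the IL-2v library, a ratio of 11.2 (8.20 to 15.6). It had 25.4 CPM without cytokine, 19.8 CPM with 5 IU/mL IL-2, 27.2 CPM with 5 IU/mL IL-2v, and 38.3 and 35.4 CPM with IL-15. Iigp1, another GTPase, had 127 CPM without cytokine, 90.1 and 17.4 CPM with IL-2, 108 and 72.1 CPM with IL-2v, and 125 and 108 CPM with IL-15. For both genes the IL-2 culture was the lowest of the 7 by a wide gap. Ifi209 was at 24.2 and 6.12 CPM. Relatives of Ifi206 named after their values were seen stood alike, Ifi203 at 59.1 and 18.1 CPM and Mndal at 74.4 and 31.1 CPM. Ifi206 and Ifi209 share 25.6% and 33.7% of their 50-base stretches with family members, so their split is uncertain. Per cell thinned to 2000 UMIs, the interferon-stimulated list had a median of 3 UMIs with IL-2v, 1 with IL-2 and 3 without cytokine, and cells with none were 8.50%, 22.4% and 10.2%.

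Surface proteins of naive and memory T cells were split. Ly6c2, a memory-associated surface protein, had 145 CPM without cytokine, 150 and 65.8 CPM with 5 and 50 IU/mL IL-2, 199 and 257 CPM with IL-2v, and 208 and 270 CPM with IL-15, a ratio of 3.91 (3.66 to 4.17). Its level was lowest with IL-2, while the IL-2v level lay among those of the other cultures. Dapl1, a marker of memory precursors, was at 146 and 45.7 CPM, and Cxcr3, a receptor for inflammatory chemokines, at 31.9 and 9.21 CPM, both higher with IL-2v. Both genes were higher still without cytokine, at 227 and 102 CPM. Ccr7, a receptor for homing to lymph nodes, lay the opposite way: it had 182 CPM without cytokine, 172 and 162 CPM with IL-2, 177 and 56.9 CPM with IL-2v, and 133 and 122 CPM with IL-15. It was seen in 9.96% of thinned IL-2v cells, 24.3% of IL-2 cells and 28.2% of cells without cytokine. Cd7 was also lower with IL-2v (6.35 against 21.4 CPM). Over the naive and stem-like list, 2 of 18 tested genes were higher and 2 lower by 2-fold, with a median of 0.12. Among all 6152 genes tested 75 were higher and 129 lower. In cells without a UMI of Mki67 or Top2a the median turned to −0.13, with 3 higher and 4 lower. Of all 6072 genes tested in those cells 256 were higher and 222 lower. The factors Tcf7 (65.2 and 50.5 CPM), Lef1 (123 and 112 CPM) and Klf2 (76.3 and 66.3 CPM) were within 2-fold and, in both libraries, below the levels of the other 5 day 3 cultures (164 to 256, 174 to 238 and 175 to 277 CPM). Il7r was at 115 and 230 CPM, just inside 2-fold. Across 12 alternative settings of the processing Il7r was within 2-fold in 7, and its lowest difference was −1.13.

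Over all 6152 genes tested, 1.22% were 2-fold higher and 2.1% lower with IL-2v, beside the small counts of the lists that follow. In the effector list 1 of 11 tested genes was 2-fold higher with IL-2v and none lower (median 0.09). That gene was Gzma, a granzyme, at 33.2 and 11.9 CPM, and it was just within 2-fold in cells without a UMI of Mki67 or Top2a (0.99) and with a pseudocount of 10 CPM (0.98). Gzmb, the main killing protease of activated cells, was at 1544 and 1873 CPM, against 642 to 899 CPM in the remaining day 3 libraries. Nkg7, a granule membrane protein, was at 563 and 316 CPM. The chemokine receptor and integrin list had 1 gene higher (Cxcr3) and 3 lower of 16, namely Emilin2, a matrix protein, at 16.4 against 60.6 CPM, the leukotriene receptor Ltb4r1 at 12.6 against 31.8 CPM, and Cxcr4. Junb (91.5 against 205.4 CPM) and Batf3 (61.1 against 128 CPM), partners in AP-1 dimers, were the 2 of 12 tested genes of the T cell receptor induced list that were lower, while none was higher.

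More of the IL-2v cells had UMIs of proliferation genes. Over all cells no replication or mitosis gene reached 2-fold, and 3.32% of all genes tested did. After thinning to 2000 UMIs, a UMI of the proliferation genes Mki67 or Top2a was found in 78.5% of IL-2v cells (77.3% to 79.7%) and 64.1% of IL-2 cells (62.4% to 65.7%). The other day 3 libraries gave 46.7% to 57.3%, and naive cells 1.83%. The unthinned shares were 86.9% and 73.8%. By this measure the IL-2v culture was highest of the 7 and the IL-2 culture second. The mitosis list ranked the IL-2 culture otherwise: it summed to 7644 CPM with IL-2v, the highest of the 7, and to 5847 CPM with IL-2, the lowest. Of its 40 genes 20 were lowest with IL-2, against 1174 of all 6152 genes tested. Of 48 tested DNA replication genes and 40 mitosis genes none was 2-fold apart, against 75 higher and 129 lower of all 6152 genes tested. The medians of the 2 lists were 0.46 and 0.33. With IL-2v, 44 of the 48 replication genes were highest of the 7 day 3 libraries, against 2269 of all 6152 genes tested. Tyms (67.3 and 35.4 CPM) and Rrm2 (177 and 96.2 CPM), which make DNA precursors, had the largest differences. Within cells holding a Mki67 or Top2a UMI the 2 medians were 0.32 and 0.16. Within the 631 IL-2v and 908 IL-2 cells without one, the replication list's median was 1.10 and 30 of its 48 genes were at least 2-fold higher with IL-2v, and the mitosis list's median was 0.96 with 9 of 20 tested genes higher. Of all 6072 genes tested in such cells, 256 were higher and 222 lower. Inhibitors of cyclin-dependent kinases were lower with IL-2v: Cdkn1a (p21) had 16.7 CPM without cytokine, 31.7 and 148 CPM with IL-2, 22.9 and 39.5 CPM with IL-2v, and 12.8 and 16.4 CPM with IL-15. Cdkn1b (p27) had 33.5 CPM with IL-2v, 80.5 CPM with IL-2 and 65.0 to 93.8 CPM elsewhere. For Cdkn1a the IL-2 culture was the high one, and for Cdkn1b the IL-2v culture was the low one. Hist1h2ap, a histone gene, was at 1096 and 296 CPM, but 93.1% of its 50-base stretches are shared with other histone genes, and its level without cytokine was 1758 CPM.

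**Figure D4:**
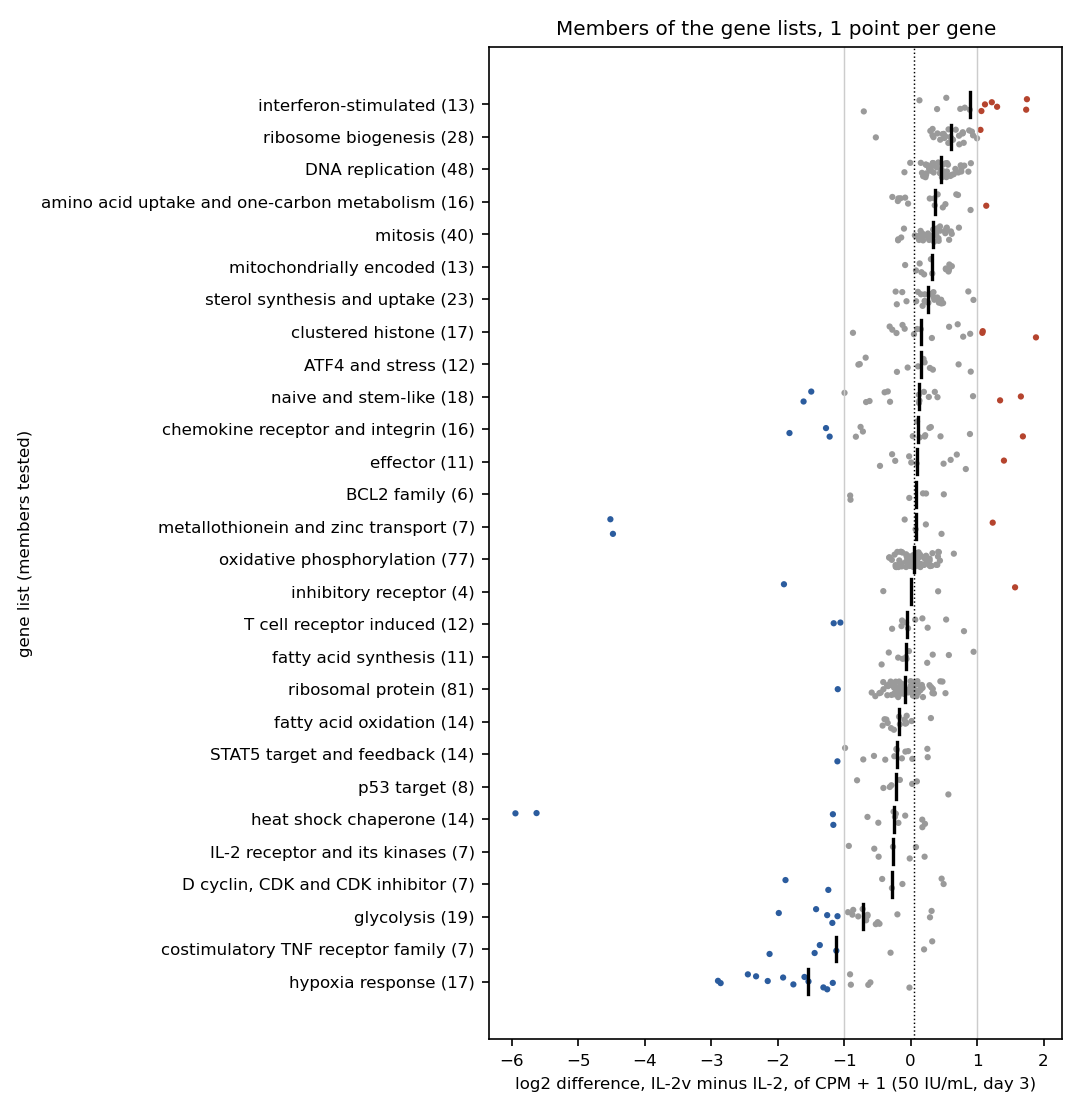
Log2 difference of CPM + 1 (IL-2v minus IL-2, 50 IU/mL, day 3) for each tested member of the 28 gene lists, 1 point per gene, with medians as black bars, the median of all tested genes as a dotted line, and genes at least 2-fold higher in red and lower in blue. The hypoxia response list lies lowest (median −1.54) and the interferon-stimulated list highest (0.89).

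Genes of the IL-2 receptor and its direct targets had few differences past 2-fold, as did all genes tested (75 higher and 129 lower of 6152). Il2ra, itself a target of IL-2 signalling, had 149 CPM without cytokine, 264 and 869 CPM with 5 and 50 IU/mL IL-2, 235 and 594 CPM with IL-2v, and 197 and 257 CPM with IL-15 (log2 difference −0.55). Il2rb was at 463 and 438 CPM and Il2rg at 156 and 135 CPM. Over all cells none of the 7 tested members of the receptor and kinase list was 2-fold apart. Stat5b had the largest difference (32.9 and 63.5 CPM), while Stat5a was at 29.8 and 30.1 CPM. In cells without a UMI of Mki67 or Top2a Stat5b passed 2-fold, at −1.18. Of 14 tested STAT5 target and feedback genes, 1 was 2-fold lower and none higher, with a median of −0.21: the cytokine gene Lta, at 69.4 and 150 CPM. In cells without a UMI of Mki67 or Top2a the difference of Lta was −0.94, within 2-fold. Cish, a feedback inhibitor, had 8.27 CPM without cytokine, 14.0 and 147 CPM with IL-2, 27.8 and 73.7 CPM with IL-2v, and 11.6 and 18.02 CPM with IL-15 (−0.99). Cish passed 2-fold under TMM scaling (−1.05) and in cells with a UMI of Mki67 or Top2a (−1.005), and was at −0.60 in cells without one. The 50 IU/mL cultures with IL-2 and with IL-2v were both far above the other 5 day 3 cultures, 50 IU/mL IL-15 included, for Cish and Lta. Pim2, a survival kinase, was at 328 and 322 CPM, Socs2 at 121 and 133 CPM, Bcl2 at 481 and 557 CPM, and Myc at 219 and 225 CPM. The list as a whole held 2652 CPM with IL-2v and 3010 CPM with IL-2, against 1103 CPM without cytokine. Its median lay the other way at 5 IU/mL on day 3 (0.44) and at 50 IU/mL on day 5 (0.32). At 50 IU/mL on day 10 it was −0.22.

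Lists of growth and metabolism held few genes past 2-fold, as did all genes tested (75 higher and 129 lower of 6152), with medians on both sides of 0. Of 28 tested ribosome biogenesis genes 1 was just past 2-fold, Nolc1 (226 and 109 CPM). It fell short of 2-fold under TMM scaling, with a pseudocount of 10 CPM and in cells with a UMI of Mki67 or Top2a (0.99 in each). In cells without such a UMI 8 of the 28 genes were 2-fold higher, where 256 of all 6072 genes tested were higher and 222 lower. The list's median was 0.60, and 27 of the 28 were highest of the day 3 libraries with IL-2v, against 2269 of all 6152 genes tested. Of 16 amino acid uptake and one-carbon genes 1 was higher, Shmt1 (44.7 and 19.7 CPM; median 0.36), a serine hydroxymethyltransferase, which was within 2-fold with a pseudocount of 10 CPM (0.88), and the amino acid carriers Slc1a5 (207 and 110 CPM) and Slc7a1 (107 and 64.9 CPM) followed. Of 23 sterol genes (median 0.27), 11 fatty acid synthesis genes (−0.06, or 0.08 in cells without a UMI of Mki67 or Top2a, where 1 passed) and 14 fatty acid oxidation genes (−0.17) none was 2-fold apart, with Fasn, the fatty acid synthase, at 139 and 71.5 CPM. The 77 tested oxidative phosphorylation genes had none 2-fold apart and a median of 0.06, which turned to −0.01 under TMM scaling. The 13 mitochondrially encoded genes, which make up the mitochondrial share of a library, had a median of 0.33. Here the IL-2 library was the low one, lowest of the 7 for 10 of the 13 genes, against 1174 of all 6152 genes tested. Its share was 3.37%, against 4.38% with 50 IU/mL IL-2v and 4.28% to 4.82% in the remaining day 3 libraries. Among 81 ribosomal protein genes 1, Rps2, was 2-fold lower, and 43.0% of its 50-base stretches are shared with pseudogenes.

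The comparison was then read at other doses and days, in pairs made of other libraries. With 5 IU/mL on day 3, 2 of 5774 genes (0.0346%) passed 2-fold in the higher and 3 (0.052%) in the lower direction. Of the genes called at 50 IU/mL, 59 higher and 93 lower ones were tested there, and 0 and 2 of them were 2-fold apart in the same direction. The sign was the same in 79.7% of these higher and 81.7% of these lower genes, against 52.2% and 47.8% of all genes tested there, with medians of 0.30 and −0.22. The 2 genes past 2-fold were Mt1 (log2 difference −1.20) and Mt2 (−1.83). With 50 IU/mL on day 5, 357 of 6227 genes were higher (5.73%) and 129 lower (2.07%), and 29 of 65 higher genes (44.6%) and 53 of 120 lower genes (44.2%) from day 3 were 2-fold apart the same way. Under TMM scaling these counts were 17 and 77. With 50 IU/mL on day 10, 145 of 5227 genes were higher (2.77%) and 113 lower (2.16%), and 18 of 61 (29.5%) and 28 of 86 (32.6%) were 2-fold apart the same way. Of the 75 higher genes, 5 were 2-fold higher on all 3 days, among them Cxcr3, Hemgn, Hist1h2ap and Slc39a10. The 16 lower on all 3 days were Basp1, Batf3, Bnip3, Dgat1, Ero1l, Icos, Impa2, Ltb4r1, Mt1, Mt2, Ndrg1, Plod2, Rgs1, Rhoq, Sat1 and Slc2a3. Mt1 differed by −4.48, −3.93 and −4.15 on days 3, 5 and 10, and Ero1l by −2.33, −1.16 and −2.10. The median of the hypoxia response list was −0.03 at 5 IU/mL on day 3, −0.43 on day 5 (5 of 17 tested genes lower) and −0.49 on day 10 (4 of 15 lower), nearer 0 than on day 3 at 50 IU/mL. Gbp2, Iigp1 and Ifi209 had differences of 1.75, 1.99 and 1.82 on day 3 of −0.14, −0.17 and −0.11 on day 5, and of −0.35, 0.37 and 0.56 on day 10. The interferon-stimulated list had a median of −0.04 on day 5, with none of 14 tested genes 2-fold apart, and of 0.67 on day 10, with 3 of 17 higher and none lower. Hspa1a was lower with IL-2v on day 5 as well (−6.77) but not on day 10 (0.95, from levels too low to be tested there).

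**Figure D5:**
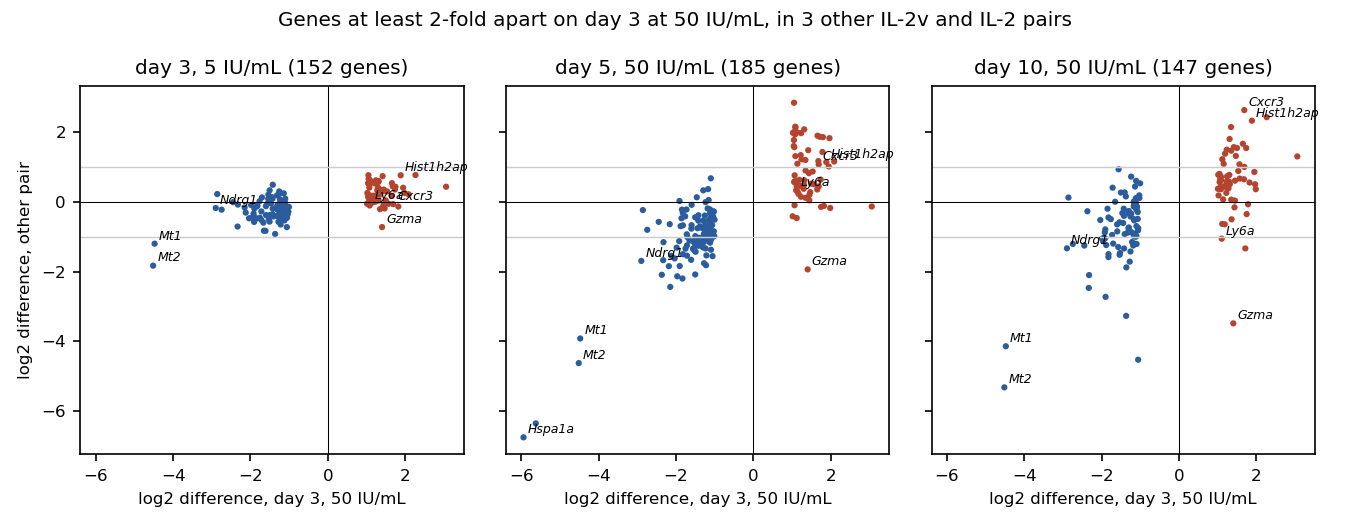
Log2 difference (IL-2v minus IL-2) on day 3 at 50 IU/mL (horizontal) against the same difference in 3 other pairs of libraries (vertical), for genes at least 2-fold apart in the first and tested in both, higher genes in red and lower genes in blue. At 5 IU/mL on day 3 no point but those of Mt1 and Mt2 lies 2-fold from 0, and points spread further in the pairs of days 5 and 10.

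As whole profiles, the 2 libraries lay 0.424 apart. The distance is the square root of the mean squared difference in log2(CPM + 1), taken across the 5655 genes that averaged 20 CPM or more on day 3. The IL-2v library was as far from that with 50 IU/mL IL-15 (0.424) and slightly nearer to its own low dose (0.402). The IL-2 library was 0.478 from its low dose, 0.489 from 50 IU/mL IL-15 and 0.597 from the library without cytokine, to which the IL-2v library lay at 0.586. The distance at 5 IU/mL between IL-2v and IL-2 was 0.205.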

How the data were processed

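The deposited tables hold UMI counts per gene and cell, 1 table per library, with 17516 genes in both libraries compared. Per the submitters' processing notes, Cell Ranger, Seurat 4.0.1 and 3.0.2 and the mm10 build were used, without their roles. The kit, the annotation and any removal of doublets are not given in the sources used here, and the deposited barcodes (at least 1002 UMIs in the day 3 libraries) were all kept. Counts were summed per library and divided by its total to give CPM. Genes with at least 20 CPM in either library were compared on log2(CPM + 1), and a difference of at least 2-fold was counted. With 1 library per condition no p-value was computed. Shares of cells used cells thinned to 2000 UMIs, which left out 124 IL-2, 273 IL-2v and 306 naive cells. Doublets were not called, and leaving out cells above 2 times the median UMIs served as an alternative. Python 3.11.15 with numpy 2.4.6, scipy 1.17.1, pandas 2.3.3 and matplotlib 3.10.9 was used, and R 4.3.3 with edgeR 4.0.16 for TMM factors, an alternative scaling. Calculations were checked on simulated counts. Some results are not reported here.

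The comparison, its gene lists and the alternatives were chosen with earlier results of these data known. Named genes were the 12 highest and 12 lowest, the 4 highest and 4 lowest with at least 500 CPM, the 3 largest differences of each list, every member of 3 lists (receptor, STAT5, metallothionein) and cell markers. Further list members, Icos, Klrd1, the relatives of Ifi206 and the genes of the closing observations were named after their values were seen. Shared sequence was measured as 50-base stretches of GENCODE vM21 transcripts found in another gene, since the counting of such reads is not given in the sources used here.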

Additional observations from a re-analysis of the deposited data

Results flagged for a closer look

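The direction of 3 genes called on day 3 turned by at least 2-fold in a later pair of libraries at the same dose, and this difference between days was not tested because each condition had 1 library. Ly6a, a surface protein of activated and memory T cells, had a log2 difference of 1.11 on day 3 and −1.06 on day 10. Gzma had 1.40 on day 3, −1.94 on day 5 and −3.49 on day 10. AA467197 had 1.72 on day 3 and −1.335 on day 10.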

How the results depend on the processing

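Counts of 75 higher and 129 lower genes became 256 and 222 when cells with a UMI of Mki67 or Top2a were left out, where 53.6% of the called genes were higher against 36.8% over all cells. They were 34 and 84 with a pseudocount of 10 CPM, 181 and 264 with no filter, and 18 and 34 with a minimum of 100 CPM; these 3 settings change the scale or the number of genes by construction. TMM scaling gave 63 and 150 and moved the log2 differences by −0.06, and 17 rather than 29 of the higher and 77 rather than 53 of the lower genes were then shared with day 5. The share of cycling cells was 62.0% with IL-2v and 48.0% with IL-2 after thinning to 1000 UMIs, 86.9% and 73.8% without thinning, and 95.6% and 81.0% when at least 3 UMIs of the mitosis list were asked for. Such UMIs were also found in 16.6% of naive cells by the last rule, which is thus less strict. No called gene of the naming rule or the lists changed sign, but several settings could not have turned one. A filter at 500 genes and 10% mitochondrial UMIs removed 0 cells, and other CPM minima leave the difference of a gene as it is. A pseudocount cannot turn a sign, and the TMM shift is smaller than any called difference. Of 74 such genes, 56 stayed at least 2-fold apart wherever they were tested, and 18 fell within 2-fold under at least 1 setting, most of them with a pseudocount of 10 CPM. Beside those given with their values above, these included Cd7, Tnfrsf8, Batf3, Ltb4r1, Cxcr4, Vegfa, Isg20, Hist1h2ac, Hist1h4h and Pfkfb3, the last also when cells with a UMI of Mki67 or Top2a were left out (−0.89). Medians near 0 did change sign: that of all genes was −0.02 under TMM scaling, and those of the effector (−0.002 with no filter), chemokine receptor and integrin (−0.04 when cells with a UMI of Mki67 or Top2a were left out) and inhibitory receptor lists (−1.16 to 0.38) did so too. The costimulatory receptor median was −0.19 with no filter. For the other settings the cause of a change was not tested. The alternatives for the distances between libraries were chosen after seeing the data. No paired analysis was possible because each condition had 1 library.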

Other observations

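The following interferon-inducible genes outside the list were picked after their values were seen, and all were at least 2-fold higher with IL-2v. Their shared direction follows from that choice and adds no support to the result of the list. Xaf1 had 23.5 CPM with IL-2v and 7.27 CPM with IL-2, Gbp6 46.0 and 16.2 CPM, Slfn8 22.4 and 6.24 CPM, and Trim30a 56.4 and 24.8 CPM. Zbp1, a sensor of unusual nucleic acids, had 50.3 and 22.2 CPM, and Irgm1, a GTPase, 49.4 and 22.2 CPM. Psmb10, a subunit of the immunoproteasome, had 149 and 71.5 CPM. For each of these genes the IL-2 library was the lowest of the 7 day 3 libraries, as it was for 53 of the 75 higher genes. The killer lectin receptor genes Klrd1 (136 and 48.3 CPM) and Klrk1 (140 and 54.3 CPM) were higher with IL-2v as well, and Klrd1 had 357 CPM without cytokine.

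Several genes for transcription factors, signalling proteins and chromatin enzymes, picked after their values were seen and not a tested group, were lower with IL-2v. The transcription factor gene Klf10 (log2 difference 1.79) was among the 12 highest genes. Crem, a cAMP-responsive factor, had 31.8 CPM with IL-2v and 134 CPM with IL-2, against 24.7 to 34.6 CPM in the remaining day 3 libraries. Nfil3, a transcription factor, had 30.8 and 86.7 CPM. Malt1, a protease in the path from the T cell receptor to NF-kB, had 104 and 343 CPM, and Tnfaip3, an inhibitor of the same path, 7.45 and 29.1 CPM. Tet2, a DNA demethylase, had 34.3 and 78.4 CPM, and the histone demethylase Kdm5b 18.4 and 67.7 CPM. On the higher side, Mat2a, which makes the methyl donor S-adenosylmethionine, had 217 and 86.4 CPM, and the purine synthesis gene Gart 94.5 and 45.2 CPM, both highest of the 7 day 3 libraries with IL-2v.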
